A study of Mus musculus with 2 samples.

Results

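The Rab genes encode small GTPases that direct membrane vesicles between the compartments of a cell. They were chosen by name: every gene whose only symbol in the array annotation was Rab followed by a number and at most 1 letter. Effectors, GTPase-activating proteins and opposite-strand transcripts with related names were left out. The rule gave 59 genes of the 18193 named on the array, and 53 of them were measured, which here means a signal above a floor of 10.3 on at least 1 array. The floor is the 40th percentile of all signals. Of several probe sets, the one with the highest log2 signal averaged over both arrays stood for a gene. No measured difference was used to choose the genes.

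The RNA came from spleen antigen-presenting cells (APCs) of wild-type female C57BL/6 mice aged 10 weeks. In both groups the APCs shared an overnight culture with CD4+ T cells of the P25 T cell receptor, a transgenic receptor for a mycobacterial peptide on MHC class II. In the P25 group the peptide P25 was added, and in the medium group it was not. The APCs were then enriched, RNA of 3 independent experiments was mixed for each group, and each mixture was read on 1 Affymetrix array. The medium array is thus a control with the same T cells but no antigen. There is 1 pooled array per group and so no replicate spread, no p-value and no test in what follows. Every ratio is P25 over medium. To gauge technical disagreement, log2 ratios from the brightest pair of probe sets of a gene were compared in 5293 genes, and their differences had an SD of 0.58. Pairs whose dimmer member had a mean signal below 100 differed with an SD of 0.68, and the brighter pairs with one of 0.46. That disagreement covers the probes and not the culture.

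A Rab protein switches between a GDP-bound form in the cytosol and a GTP-bound form on a membrane. Lipid tails added by the Rab geranylgeranyl transferase hold it there. Exchange factors load GTP, and the active Rab recruits effectors that move, tether and fuse vesicles. GTPase-activating proteins end the cycle, and GDP dissociation inhibitors return the Rab to the cytosol. In APCs these steps carry antigen through endosomes and phagosomes to lysosomes, recycle MHC molecules and release cytokines.

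B cell markers had strong signals on both arrays (Cd79a 3655 with P25 and 6119 with medium, Ms4a1 5911 and 5041). Marker lists of other cell types moved with P25. Beside the counts that follow, 9.43% of all 12897 measured genes were at least 2-fold higher and 7.22% at least 2-fold lower. Macrophage and monocyte markers were lower, with 10 of 13 measured past 2-fold and none higher by that much. Their summed signal over 16 probe sets was 1478 with P25 and 3476 with medium, and C1qa, C1qc and Cd163 were below the floor on both arrays. Of 16 B cell markers 3 were at least 2-fold lower (summed signal 35117 and 50890). Of 9 measured neutrophil markers 7 were at least 2-fold lower (6983 and 12922). Of 13 measured conventional dendritic cell markers 3 were lower and 2 higher by that threshold (4023 and 5841). These sums were mostly Btla, without which they were 822 and 1029. Of 9 plasmacytoid dendritic cell markers 2 were lower (Siglech and Ccr9) and 2 higher (Bst2 and Klk1), with sums of 10310 and 8852. Most of the plasmacytoid sums came from Irf8 (4275 and 2939) and Ly6d (4109 and 4143). T cell markers summed to 526 and 1408, and to 187 and 268 without Cd2, with 3 of 9 measured ones at least 2-fold lower, and Cd3e, Cd3d, Cd247, Cd4 and Cd6 below the floor on both arrays. In such a mixture, fewer cells of a type and less RNA per cell cannot be told apart. What part these shifts had in the Rab ratios was not tested.

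Most measured Rab genes had floored ratios within 1.5-fold. Of the 53 measured, 48 were within 2-fold and 40 within 1.5-fold, where 16.6% of all measured genes lay past the first limit and 39.2% past the second. A ratio against the floor is a least difference. Rab9b (1.36 with P25 and 11.01 with medium) thus counts within both limits, and Rab17 (7.23 and 11.4) within 1.5-fold, only through the floor. Rab34 was at least 2-fold higher, and Rab7b, Rab6b, Rab33a and Rab5b were at least 2-fold lower. Over all 12897 measured genes, 9.43% were at least 2-fold higher and 7.22% at least 2-fold lower, against 1 and 4 of 53 Rab genes. Their median log2 ratio was 0.01 (quartiles -0.41 and 0.15), beside 0.02 over all genes (quartiles -0.43 and 0.48). At 1.5-fold, 10 Rab genes were lower and 3 higher, where 18.3% and 20.9% of all genes were. With both arrays brought to 1 median over the measured probe sets, 10 Rab genes were lower and 6 higher by 1.5-fold, where 13.4% and 26.3% of all genes were.

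The Rab genes with strong signals mostly stayed within 1.5-fold on the probe set that stood for each gene. Other probe sets of some of them differed, as given below. Of 30 with a mean signal of at least 100, none passed 2-fold, while 17.1% of the 6914 genes with such signals did. At 1.5-fold 4 of the 30 passed (Rab30, Rab33b and Rab22a lower, Rab21 higher), where 40.4% of the 6914 genes did. All 5 genes past 2-fold were thus among the 23 measured Rab genes with weaker signals, 1 higher (4.35%) and 4 lower (17.4%). Of all 5983 measured genes with such signals, 7.74% were at least 2-fold higher and 8.34% lower. The 6 Rab genes below the floor on both arrays were Rab3c, Rab4a, Rab25, Rab26, Rab40b and Rab42, and no ratio is given for them.

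**Figure D1:**
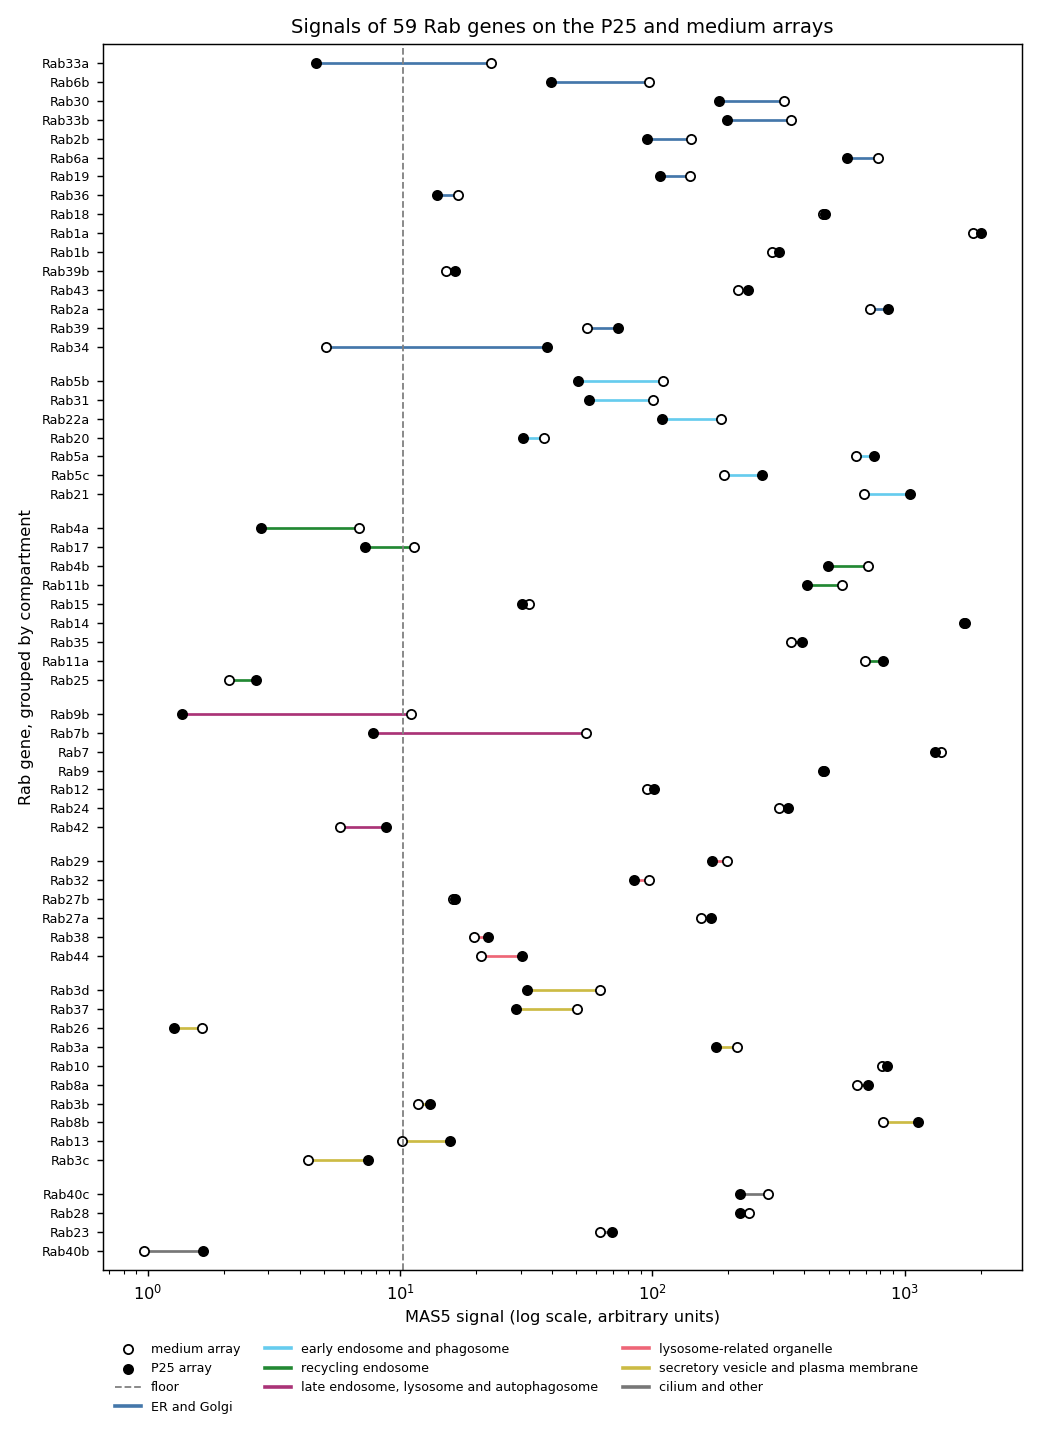
MAS5 signals of the 59 Rab genes (log axis, arbitrary units) on the P25 array (filled) and the medium array (open), grouped by compartment, with the floor of 10.3 dashed. Long lines mark Rab34, Rab7b, Rab33a and Rab9b, which crossed the floor (Rab9b only just, at 11.01 with medium), while Rab1a, Rab14 and Rab7, the 3 with the strongest signals, have their points nearly on each other; levels of different genes are not comparable.

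The bases before the transcription start are given for 4 of the genes past 2-fold and, for contrast, for Rab5a and Rab5c, the close relatives of Rab5b. The sequences are from RefSeq on GRCm38.p6, in which 48 of the 59 genes had such an entry, and each shows the 250 bases before the start. Capitals mark matches on either strand to TTCNNNGAA (the interferon-γ activated sequence, GAS) or CACGTG (the palindromic E-box). Rab34 (chr11:78188177-78188426, plus strand) is shown for the first of its 2 listed starts. Rab6b is at chr9:103111824-103112073 and Rab33a at chrX:48519035-48519284, both on the plus strand. Rab5b is at chr10:128696269-128696518 on the minus strand, Rab5a at chr17:53478984-53479233 on the plus strand and Rab5c at chr11:100738216-100738465 on the minus strand.
Rab34: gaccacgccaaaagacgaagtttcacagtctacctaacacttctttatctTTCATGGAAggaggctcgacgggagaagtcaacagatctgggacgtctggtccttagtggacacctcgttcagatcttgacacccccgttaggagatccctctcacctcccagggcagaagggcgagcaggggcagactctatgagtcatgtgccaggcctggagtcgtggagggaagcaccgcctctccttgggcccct
Rab6b: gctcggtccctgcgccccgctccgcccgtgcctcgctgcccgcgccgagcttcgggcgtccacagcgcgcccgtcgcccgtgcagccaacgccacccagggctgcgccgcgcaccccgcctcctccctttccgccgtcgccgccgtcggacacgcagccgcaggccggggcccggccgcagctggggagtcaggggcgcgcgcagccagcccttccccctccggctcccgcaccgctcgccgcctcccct
Rab33a: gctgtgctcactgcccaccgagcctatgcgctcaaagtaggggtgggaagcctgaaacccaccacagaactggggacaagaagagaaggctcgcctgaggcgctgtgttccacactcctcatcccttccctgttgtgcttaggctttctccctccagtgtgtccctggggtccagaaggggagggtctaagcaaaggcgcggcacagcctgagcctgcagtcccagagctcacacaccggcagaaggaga
Rab5b: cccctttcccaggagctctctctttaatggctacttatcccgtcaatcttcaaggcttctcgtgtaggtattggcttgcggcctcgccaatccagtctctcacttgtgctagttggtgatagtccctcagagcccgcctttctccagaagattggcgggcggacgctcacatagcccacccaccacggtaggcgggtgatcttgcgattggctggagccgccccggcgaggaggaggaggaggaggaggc
Rab5a: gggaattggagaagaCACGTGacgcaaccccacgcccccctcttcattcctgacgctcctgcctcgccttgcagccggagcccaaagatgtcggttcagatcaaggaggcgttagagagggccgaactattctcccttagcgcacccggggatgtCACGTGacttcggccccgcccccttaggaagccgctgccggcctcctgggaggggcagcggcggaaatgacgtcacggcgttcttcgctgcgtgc
Rab5c: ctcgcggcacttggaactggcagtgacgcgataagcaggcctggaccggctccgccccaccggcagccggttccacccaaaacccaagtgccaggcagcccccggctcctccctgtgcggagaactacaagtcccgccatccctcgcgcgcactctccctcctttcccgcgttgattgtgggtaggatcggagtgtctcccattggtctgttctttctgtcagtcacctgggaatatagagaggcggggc
The window of Rab34 held 1 GAS match beginning 200 bases before the start, and its other start had none in its window. Neither motif was found in the windows of Rab6b, Rab33a, Rab5b and Rab5c, and Rab5a had 2 E-boxes, beginning 235 and 95 bases before the start. Of 60 Rab windows, 5 held a GAS match (Rab11a, Rab15, Rab19, Rab25 and Rab34) and 5 an E-box (Rab5a, Rab20, Rab21, Rab23 and Rab27a). The same letters were in 7.02% and 6.02% of all 32851 windows. These are matches of letters and not known sites.

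Among the ER and Golgi Rabs, all 16 were measured, 1 was higher and 2 were lower by 2-fold. Rab34, a Golgi-associated Rab also linked to phagosome maturation and ciliogenesis, had a signal of 38.3 with P25 and 5.10 with medium. It was above the floor with P25 alone and at least 3.72-fold higher. Its other probe set was dimmer and had the same direction (log2 ratio 0.60, also a bound). Rab6b, a relative of Rab6a in Golgi traffic best known from neurons, had 39.7 with P25 and 96.9 with medium, 2.44-fold lower. All 4 of its probe sets were lower, with the others between -0.63 and -1.25 in log2 ratio, and their median was -0.98. Rab33a had 4.62 and 22.9, above the floor with medium alone and at least 2.23-fold lower, on its only probe set. Its relative Rab33b, which binds the autophagy protein ATG16L1, had 197 and 354, a log2 ratio of -0.84. Rab30, a Golgi Rab, had 184 and 333 (log2 ratio -0.85), and its other probe set gave -0.93. At 1.5-fold, these 4 of 16 ER and Golgi Rabs (Rab6b, Rab33a, Rab33b and Rab30) were lower and Rab34 was higher, where 18.3% and 20.9% of all genes were.

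The other ER and Golgi Rabs were within 1.5-fold on their representing probe sets, though several had further probe sets that differed from these. Rab1a, which starts the route from ER to Golgi, had 2002 against 1875 (log2 ratio 0.09), with 0.17 and, on a dim probe set of 30.9 against 72.2, -1.23 on its others. Rab1b, of the same step, had 319 against 297 (0.10). Rab2a, which also works between ER and Golgi, had 860 against 729 (0.24), but its 5 other measured probe sets were all below 0, from -0.30 to -0.87. Rab2b had -0.58, with its 4 other probe sets from -0.41 to -0.93. Rab6a had 591 against 785 (-0.41), and its other probe sets went both ways, to -0.40 and 0.66. Rab18, a Rab of the ER and lipid droplets, had 483 against 474 (0.03). Rab43, known for cross-presentation by dendritic cells, had 240 against 218 (0.14), with -0.69 and 0.35 on its others. Rab39, whose protein acts in phagosome acidification and cross-presentation, had 73.0 against 54.9 (0.41, 1.33-fold higher). Rab19, Rab36 and Rab39b had log2 ratios of -0.40, -0.29 and 0.12.

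Within the early endosome Rabs, Rab5b was lower with P25. Rab5a and Rab5c were within 1.5-fold on the higher side without rescaling of the arrays. RAB5 isoforms drive fusion of incoming vesicles with early endosomes, and are encoded by Rab5a, Rab5b and Rab5c. Rab5b had 50.7 with P25 and 109.7 with medium, 2.16-fold lower, and its second probe set was 2.05-fold lower. Rab5a had 759 against 642 (1.18-fold higher) and Rab5c 272 against 193 (1.41-fold higher). With median or spike-in scaling of the arrays, Rab5b came to log2 ratios of -0.97 and -0.96, just under 2-fold, and with loess to -0.92. Rab5c came to 0.64 and 0.65 with these scalings, past 1.5-fold, and to 0.56 with loess. Rab5a came to 0.39 with either scaling and to 0.12 with loess. Rab5a and Rab5c have 1 probe set each.

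Rab21, which takes up integrins, was the highest of the early endosome Rabs, with 1049 against 693 (1.51-fold higher), and its second probe set gave a log2 ratio of 0.24. Rab31 and Rab22a, close relatives between early endosomes, recycling and the trans-Golgi, were both lower on the representing probe sets. Rab31 had 55.9 against 100.5 (log2 ratio -0.85, and -0.64 on its other probe set). Rab22a had 110 against 187 (-0.77), but only -0.04 to -0.25 on its 3 others. Rab20, a phagosomal Rab that is inducible by interferon-γ in macrophages, had 30.6 against 37.2 (log2 ratio -0.28). Of these 7 Rabs 1 was 2-fold lower and none higher.

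No recycling endosome Rab passed 2-fold, and all 7 measured were within 1.5-fold, Rab17 only as a bound. Rab11a, the main Rab of the recycling compartment from which MHC class I can be delivered to phagosomes, had 821 against 698 (log2 ratio 0.23). Rab11b had 409 against 562 (-0.46), and -0.34 and -0.81 on its other probe sets. Rab4b, of the fast recycling route, had 499 against 717 (-0.52), while Rab4a was below the floor on both arrays. Rab14, between the Golgi, endosomes and phagosomes, had 1743 against 1722 (0.02), yet its 6 other probe sets ran from 0.02 to -1.19. Rab35, which recycles cargo to the plasma membrane, had 392 against 353 (0.15). Rab15 had 30.5 against 32.3, and Rab17, a Rab known from epithelia, was just above the floor with medium alone (7.23 against 11.4).

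Among the late endosome Rabs, Rab7b was lower with P25 and Rab7 was not. Rab7, the mouse gene for RAB7A, which directs fusion of late endosomes and autophagosomes with lysosomes, had 1325 with P25 and 1388 with medium (log2 ratio -0.07, and 0.08 on its second probe set). Rab7b, which acts between late endosomes and the trans-Golgi and dampens Toll-like receptor signalling in macrophages, had 7.80 and 54.7. It was above the floor with medium alone and at least 5.32-fold lower. Of its other probe sets 1 was measured, also with medium alone, at a log2 ratio of -0.38. With the floor at the 60th percentile (38.6) the bound for Rab7b came to -0.50, so the size of its difference from Rab7 rests on the floor. As given above for the marker lists, 10 of 13 measured macrophage and monocyte genes were lower by 2-fold, where 7.22% of all genes were. Above the floor with medium alone, as Rab7b was, were 3 of the 13 and 879 of all 12897 measured genes. Whether the shift in these markers had a part in the Rab7b ratio was not tested.

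Other late endosome Rabs were level. Rab9, the mouse gene for RAB9A, which returns mannose 6-phosphate receptors to the Golgi, had 478 against 475 (0.01). Rab24, linked to autophagy, had 344 against 318 (0.11), and Rab12 102 against 95.0 (0.10), though their second probe sets gave -0.31 and -0.52. Rab9b was just above the floor with medium (1.36 against 11.01), so its bound of -0.10 says little about its change. The 6 Rabs of lysosome-related organelles were all within 1.5-fold. Rab27a, the Rab of cytotoxic granules that also limits phagosome acidification in dendritic cells, had 170 against 156 (0.13). Rab32 and Rab38, of melanosomes and platelet granules, had 84.6 against 96.6 (-0.19) and 22.3 against 19.7 (0.18). Rab29, known for recruiting the kinase LRRK2, had 172 against 197 (-0.20). Rab44, a large Rab with EF hands, had 30.3 against 20.8 (0.54), and Rab27b 16.5 against 16.2 (0.03).

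Secretory Rabs also stayed within 2-fold. Rab8b and Rab8a, of transport to the plasma membrane, had 1127 against 819 (0.46) and 717 against 645 (0.15). Rab10, which carries Toll-like receptor TLR4 to the surface, had 855 against 816 (0.07), with 0.21 and 0.69 on its other probe sets. Rab3d, of secretory granules, had 31.8 against 62.2, 1.96-fold lower and so just inside the threshold, with -0.03 to -0.92 on its 3 others. Rab37, also of secretory granules, had 28.7 against 50.4 (-0.81) but 0.11 on its second probe set. Rab3a had 179 against 217 (-0.28) and -1.31 on a dim second probe set. Rab3b was near the floor (13.1 against 11.7), and Rab13 was above it with P25 alone (15.7 against 10.1).

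Of the remaining Rabs, Rab23, a ciliary Rab that restrains Hedgehog signalling, had 69.1 against 61.9 (0.16), with 0.42 and 1.05 on dim other probe sets. Rab28, of cilia, had 223 against 242 (-0.12), and 0.35 on its second probe set. Rab40c, which carries a SOCS box for ubiquitin ligase assembly, had 222 against 288 (-0.37). None of them passed 2-fold on the representing probe set.

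**Figure D2:**
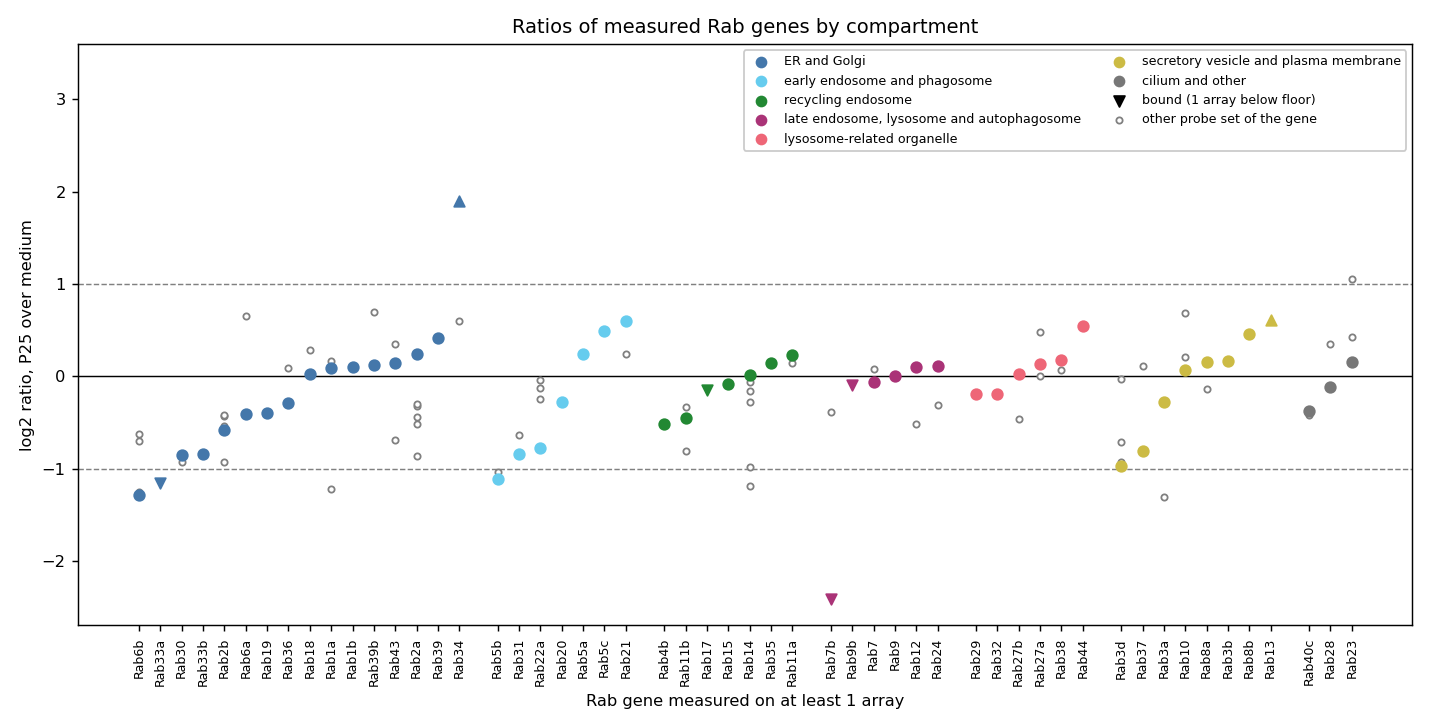
Log2 ratio of P25 over medium for the 53 measured Rab genes by compartment; filled symbols are the representing probe set, triangles bounds with 1 array below the floor, and open circles the other measured probe sets of the gene. Only Rab34 lies above the upper dashed line (2-fold) with its filled symbol, and Rab6b, Rab33a, Rab5b and Rab7b lie below the lower.

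Compartment medians of the log2 ratio lay between -0.28 (early endosome and phagosome) and 0.11 (secretory vesicle and plasma membrane), beside 0.02 over all genes. Bringing both arrays to 1 median or to 1 spike-in level added nearly the same amount to genes above the floor with P25. Rab7b, Rab33a, Rab17 and Rab9b, below the floor with P25, kept their bounds unchanged. The medians of all genes and of the Rab genes both came to 0.15 and 0.16. Relative to the median of all genes, the ER and Golgi group lay at -0.15 in the main setting and at -0.14 with either scaling, and the early endosome group at -0.30 and at -0.29. The medians of these 2 groups lay below that of all genes under each floor, scaling and probe set choice tried, but every setting reuses the same 2 arrays. Their genes went both ways in the main setting. Of the ER and Golgi Rabs 8 had a log2 ratio above 0 and 8 below, and of the early endosome Rabs 3 and 4. The other 5 groups did not keep 1 side: the secretory median, for example, was -0.02 with loess, -0.11 with the 60th percentile floor and -0.14 on the second probe set, and that of lysosome-related organelles went from 0.08 to -0.19 with that floor. No direction is given for any of the compartments.

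Probe sets that did not represent a gene give a further reading. The 59 genes had 132 probe sets, of which 111 were measured. Of these 2 were at least 2-fold higher and 9 at least 2-fold lower, with Rab5b and Rab6b counted more than once among the lower. The share over all measured probe sets was not computed, so these counts have no background. On the second probe set 0 of 33 Rab genes were higher and 3 lower, where 9.39% and 7.60% of all genes were. In 27 genes the brightest pair was above the floor on both arrays, with the same direction in 19 of 27 (70.4%, against 74.99% of all genes with such a pair), and the pair differed with an SD of 0.42. Of 33 genes with at least 2 measured probe sets, 14 had log2 ratios of both signs, among them Rab1a, Rab2a, Rab6a, Rab7 and Rab14. The share over all genes was not computed for this count either, so it has no background. Both probe sets of Rab5b and the brightest pair of Rab6b passed 2-fold.

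Rab GTPase-activating proteins lay mostly on the lower side. Of 31 measured, 25 had a log2 ratio below 0. By 2-fold 6 of them were lower (19.4%, beside 7.22% of all genes) and none higher. Their median log2 ratio was -0.45. Tbc1d4, which acts on Rabs of glucose transporter vesicles, had 20.2 with P25 and 156 with medium, 7.71-fold lower. Tbc1d8 had 25.4 against 98.7 (3.89-fold lower) and Rabgap1l 294 against 806 (2.75-fold lower). Tbc1d9b, Tbc1d10c and Evi5 were 2.16-fold, 2.12-fold and 2.03-fold lower. Tbc1d7, which is also a subunit of the TSC complex that restrains mTORC1, had the highest ratio (1.68-fold higher). With median scaling, spike-in scaling or the median over probe sets 3 of 31 (9.68%) were 2-fold lower, where 5.05%, 4.93% and 5.93% of all genes were. On the second probe set 1 of 18 was (5.56%, where 7.60% of all genes were). The list's median was -0.33 with both scalings and -0.36 on the second probe set.

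Effectors also leaned to the lower side. Among 47 measured, 11 were lower by 2-fold (23.4%, beside 7.22% of all genes) and 0 higher. Their median log2 ratio was -0.30. Those 11 were Mical1, Sytl1, Rufy2, Rab11fip5, Mical3, Rph3al, Wdr81, Fyco1, Plekhm1, Rabep2 and Rab11fip3. Plekhm1 and Fyco1, which bind active RAB7A in lysosome fusion and in vesicle transport along microtubules, had 351 against 741 and 92.8 against 199.8 (2.11-fold and 2.15-fold lower). Rabep2, a RAB5 effector, had 1190 against 2466 (2.07-fold lower), and Mical1, an actin-oxidising enzyme that binds Rabs, 234 against 576 (2.46-fold lower). Eea1 and Rabep1, effectors of RAB5 on early endosomes, had log2 ratios of 0.37 and 0.24. With median or spike-in scaling 3 of the 47 (6.38%) were 2-fold lower, near the 5.05% and 4.93% of all genes, with list medians of -0.16 and -0.15 beside all-gene medians of 0.15 and 0.16. With loess 8 of the 47 were lower (17.0%, where 6.51% of all genes were). The median over probe sets gave 5 lower (10.6%, where 5.93% of all genes were). On the second probe set 3 of 24 were lower (12.5%, where 7.60% of all genes were) and 2 higher, with a median of -0.11. The share of lower effectors was above that of all genes in these settings, but how far above depended on the scaling and the probe set.

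Exchange factors passed 2-fold in 5 of 38 measured genes, 4 lower and 1 higher, or 13.2%, where 16.6% of all genes did. Those lower made up 10.5% of the list, beside 7.22% of all genes, and the median log2 ratio was -0.12. Rin3, which activates RAB5-type Rabs, had 177 against 535 and Dennd3, an exchange factor for RAB12, 192 against 582, both 3.03-fold lower. Dennd6a and Dennd1c were 2.51-fold and 2.28-fold lower. Als2cl had 35.5 against 10.9, 3.26-fold higher from near the floor. In the prenylation and GDP dissociation list 1 of 10 passed 2-fold. Rabggtb, the catalytic subunit of the geranylgeranyl transferase, had 497 against 217, 2.29-fold higher. Rabac1, a prenylated Rab acceptor of the Golgi, had 763 against 1523, 1.99-fold lower, and Gdi2, a GDP dissociation inhibitor, 3676 against 4844 (log2 ratio -0.40).

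Other traffic and small GTPase genes had few calls. Only 17 of 28 listed Arf and Arl GTPases were found among the genes used, so the list covers part of that family. None of the 15 measured passed 2-fold, where 16.6% of all genes did, and their median was 0.08. Of 35 SNAREs, the fusion proteins that Rab effectors bring together, 1 was lower by 2-fold (Vamp1) and none higher. That is 2.86%, beside 16.6% of all genes either way, and the median was -0.20. Whether the lower marker lists had a part in the lower regulators was not tested.

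**Figure D3:**
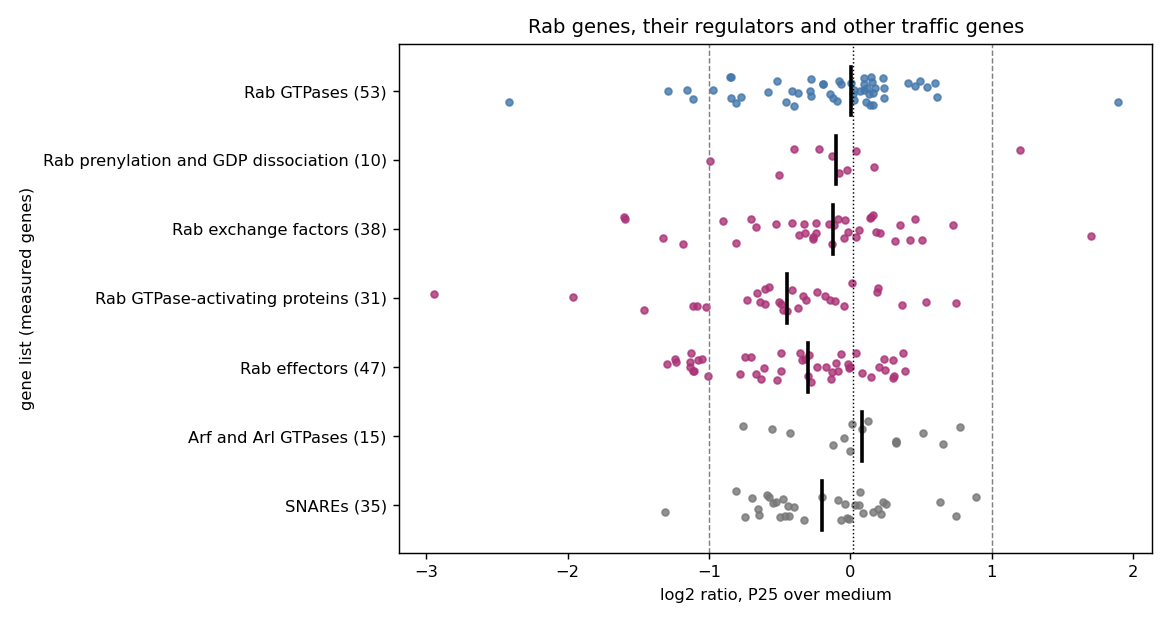
Log2 ratio of P25 over medium of each measured gene in 7 lists, with the list median as a bar, the median of all genes (0.02) dotted and 2-fold dashed. The Rab median (0.01) lies on the dotted line, while those of the GTPase-activating proteins (-0.45) and effectors (-0.30) lie to its left.

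The sizes of the 5 differences past 2-fold depended on weak signals. Only Rab6b and Rab5b were above the floor on both arrays. With the floor at the 60th percentile, Rab34 and Rab33a were below it on both arrays and have no ratio. The direction of all 5 was the same in every setting that gave a value.

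**Figure D4:**
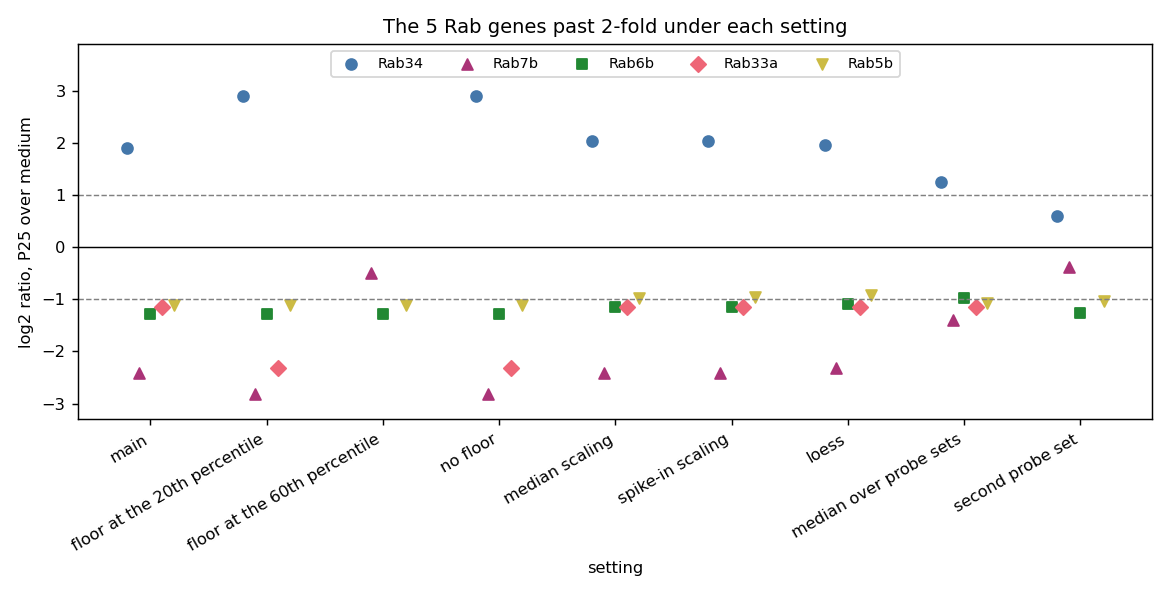
Log2 ratio of P25 over medium of Rab34, Rab7b, Rab6b, Rab33a and Rab5b under 9 settings of the floor, the array scaling and the choice of probe set, with 2-fold dashed. Rab34 stays above 0 (0.60 at its lowest, on the second probe set) and the others below 0; a missing symbol means that no value could be had.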

How the data were processed

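Messenger RNA of 2 pooled samples, P25 and medium, was read on 1 array each. The authors deposited linear signal intensities from MAS5 in GCOS (named in the submitters' processing notes); the scaling target is not given in the sources used here. Groups were taken from the treatment label. Signals below the 40th percentile over both arrays without controls (10.3) were set to that floor, which makes a ratio against it a bound. Probe sets with 1 symbol in the platform annotation were used (34945 of 45101), named through a RefSeq table of GRCm38.p6, in which all 59 Rab genes matched. A gene was called at 2-fold (ratio of at least 2 or at most 0.5). Signals of different probe sets were used to rank, sum and group genes, but not to compare RNA amounts between genes. The number of arrays, 1 per group, limits the precision, and batch and treatment cannot be told apart.

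Every Rab gene was named, and of other lists the members a sentence counts or the highest and lowest. Ms4a1, Cd79a, Eea1, Rabep1, Gdi2, Btla, Cd2, Irf8 and Ly6d were chosen after their values were seen. Compartments and lists were assigned from general knowledge, and members and lists were chosen with earlier results of these data known. Alternatives changed the floor, the scaling (median, 18 spike-in probe sets, or loess with a span of 0.3), the probe set and the threshold. The ratio script was tested on simulated data. Python 3.11.15, pandas 2.3.3, numpy 2.4.6, statsmodels 0.14.6 and matplotlib 3.10.9 were used. One of the planned gene lists is not reported here.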

Additional observations from a re-analysis of the deposited data

How the results depend on the processing

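The counts of Rab genes past 2-fold, 1 higher and 4 lower, became 0 and 2 with the floor at the 60th percentile, and also 0 and 2 over genes above the floor on both arrays, a setting chosen after seeing the data. Of all genes, 9.89% were higher and 6.44% lower with the first, and 9.89% and 7.46% with the second. Both settings remove genes by construction. On the second probe set, which 33 genes had measured, none was higher and 3 were lower (Rab3a, Rab5b and Rab6b). There 9.39% of all genes were higher and 7.60% lower. At 1.5-fold the counts were 3 and 10 of 53 (20.9% and 18.3% of all genes), and at 3-fold 1 and 1 (3.09% and 1.64% of all genes). With the 20th percentile floor, no floor, median or spike-in scaling, loess or the median over probe sets there was 1 higher and 3 to 6 lower. In these settings 8.07% to 17.8% of all genes were higher. The 6 lower came with the 20th percentile floor and with no floor, where 11.6% and 14.3% of all genes were lower. In the others 3 were lower, where 4.93% to 6.51% of all genes were. The median log2 ratio of the Rab genes was 0.15 with median scaling, 0.16 with spike-in scaling, -0.10 with the median over probe sets and -0.25 on the second probe set. These 2 scalings moved genes above the floor with P25 alike, but not the bounds of Rab7b and Rab33a. For the probe set choices the cause was not tested. No Rab gene past 2-fold reversed. Weak signals set the limit: Rab34, Rab7b and Rab33a have only bounds. No paired analysis was possible because each group has 1 sample.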

Other observations

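Genes named after Rabs but outside the family gave further values. Ift27, a Rab-like GTPase of intraflagellar transport, had a signal of 601 with P25 and 312 with medium, 1.92-fold higher. The Rab-like genes Rabl2, Rabl3, Rabl6 and Ift22 were 1.56-fold, 1.29-fold, 1.20-fold and 1.13-fold higher. All 5 Rab-like genes measured thus had a log2 ratio above 0, as 6628 of all 12897 measured genes had. Rasef, also looked at, was below the floor on both arrays. The probe set annotated to Rab26os, a transcript opposite to Rab26, had 51.3 against 19.6, 2.62-fold higher, while Rab26 itself was below the floor on both arrays. Rab10os had 168 against 171, as level as Rab10. These genes were chosen after the Rab values were seen.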
